A study of Mus musculus with 6 samples.

Results

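Transcripts of p53 targets and of the apoptosis machinery were compared between wild-type and Dll3 mutant presomitic mesoderm, the unsegmented tail tissue of the mouse embryo. The set was a list of 33 genes grouped by role: p53 itself, 13 of its targets, 11 members of the BCL2 family, and 8 caspases and caspase regulators. All probe sets assigned to exactly 1 listed symbol were averaged per gene on the log2 scale. This gave values for 31 of the 33 genes, out of 12393 genes in all. Trp53, the p53 gene, and Bax, a pore-forming BCL2 family gene, had no probe set assigned to them alone in the annotation used and were not analysed here.

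Both groups were dissected at 9.5 days post coitum, just behind the most recently formed somite, so the tissue held cells of every germ layer. The 3 wild-type pools were C57BL/6 embryos, and the 3 mutant pools were homozygous for the Dll3 neo allele (tm1Rbe), given by the labels on the same strain. The allele disrupts Dll3, a Notch ligand of the segmentation clock, in the whole embryo. Each pool was hybridised to 1 Affymetrix MOE430A array, and the sources used here do not say how many embryos made up a pool. The design text calls the pools biological replicates without naming litters, so the tests measure the spread between these pools.

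The p53 protein is a transcription factor that is kept scarce by the ubiquitin ligase Mdm2 and accumulates after DNA damage or other stress. It then switches on genes for cell cycle arrest, DNA repair and death. In the mitochondrial death pathway, BH3-only proteins such as Puma and Noxa release the pore formers Bax and Bak, which anti-death relatives such as Bcl-xL and Mcl-1 otherwise restrain. Cytochrome c then assembles Apaf1 with caspase-9, and executioner caspases dismantle the cell. Mouse embryos need Mdm2 to hold p53 in check, and those without Apaf1 or caspase-9 develop an overgrown forebrain. Caspases are made as inactive precursors and p53 is controlled largely at the protein level, so transcript levels describe the supply of these components.

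Promoters of the listed genes were searched for the p53 half-site consensus, a motif of 10 bases that reads the same on both strands. The search itself chose no gene or probe set. The targets were, however, listed as known p53 targets, so their share of matches is not independent of the list. The search covered the 250 bases before each transcript start in the RefSeq promoter table (GRCm38.p6), which held 40 windows for 28 of the 33 genes. Perp, Pmaip1, Tnfrsf10b, Trp53inp1 and Zmat3 had no window and were not searched. A match was present in 8 of the 40 windows, or 20%, and in 7.13% of all 32851 windows. Windows of p53 targets held one in 5 of 13 cases, or 38.5%, those of pro-death BCL2 genes in 1 of 11, those of caspases and regulators in 1 of 10, and those of anti-death genes in 0 of 5. The matches of the measured genes are printed here because they resemble the DNA element by which p53 recognises such genes. Capitals mark the match, and each line runs 5′ to 3′ along the gene's strand.
Cdkn1a, chr17:29090918-29090947, plus strand: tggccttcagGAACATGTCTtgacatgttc
Cdkn1a, chr17:29090896-29090925, plus strand: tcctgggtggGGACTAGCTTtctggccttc
Ccng1, chr11:40755452-40755481, minus strand: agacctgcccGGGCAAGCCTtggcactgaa
Mdm2, chr10:117710925-117710954, minus strand: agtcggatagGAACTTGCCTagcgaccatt
Sesn1, chr10:41887256-41887285, plus strand: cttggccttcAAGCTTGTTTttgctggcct
Polk, chr13:96519399-96519428, minus strand: catgtagcttGAACTAGCCTcaaacttatt
Birc5, chr11:117848999-117849028, plus strand: gacttgcagcGGACATGCTTtaaagaggtg
The match began 51 and 73 bases before the start in Cdkn1a, 185 in Ccng1, 186 in Mdm2, 173 in Sesn1, 231 in Polk and 228 in Birc5. Each distance is counted to the transcript start of the window that held the match. A gene can have more than 1 such start, and the one named need not be its main start. Matches with at most 13 bases between them were counted as a pair. Both matches of Cdkn1a formed a pair, as in 1 of the 40 windows and 0.0639% of all windows. In the first Cdkn1a line, the 10 bases directly after the match miss the consensus only at their first base. They were not counted as a match. Trp53 and Bax, for which no expression is given, also had a match. A match describes these letters and does not show that p53 bound there.

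Expression is given as the ratio to the median of the 6 arrays, taken separately for each probe set, and pools are listed in the order 1, 2, 3 for each genotype. Such ratios compare pools for a gene but say nothing of its absolute level. Neither the labelled tissue nor the level of any gene could therefore be checked from brightness. Dll3 itself fell from 1.70 ± 0.278 to 0.498 ± 0.0341 (SD, n = 3 each; limma adjusted p = 0.00132) and was the 1 gene past an adjusted p of 0.05. Wild-type pool 3 stood apart. Its log2 ratios had an SD of 0.303 over probe sets, against 0.166 to 0.234 in the other arrays, and 5.56% of its probe sets lay more than 1.5-fold from the median, against 2.31% to 3.81%.

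No measured p53 target or apoptosis gene passed the test between genotypes. Of the 31 genes, 16 had a lower mutant mean, where 48.9% of all genes did, and 15 a higher one. The median log2 difference, mutant minus wild type, was -0.012, beside 0.0028 over all 12393 genes. The differences ran from -0.27 for Pmaip1, which encodes the BH3-only protein Noxa, to 0.13 for Phlda3, a p53-induced repressor of Akt. In limma 0 of the 31 passed, where 0.00807% of all genes did, and 0 reached an unadjusted p under 0.05, where 1.28% of all genes did. The smallest unadjusted limma p was 0.176, for Apaf1, and every adjusted p was 0.99998. In bulk tissue, fewer cells of a type and less RNA per cell cannot be told apart, and a difference in a few cells could lie within these values.

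The intervals give the precision of each averaged ratio, gene by gene and without adjustment for the number of genes. They do not bound the change of a transcript whose probe sets fail to respond. For 29 of the 31 genes the 95% limma interval lay wholly within 1.5-fold in either direction, as it did for 96.1% of all genes. The exceptions were Pmaip1 (-0.76 to 0.23 on the log2 scale) and Bak1 (-0.62 to 0.24), whose lower bounds passed the 1.5-fold line, 0.585 in size on that scale. Genotypes failed to overlap for 1 of the 31 genes, Gtse1, which was higher in every mutant pool. Over all genes 4.95% did not overlap, 3.11% higher and 1.84% lower in the mutant, so this count lies near the background.

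**Figure D1:**
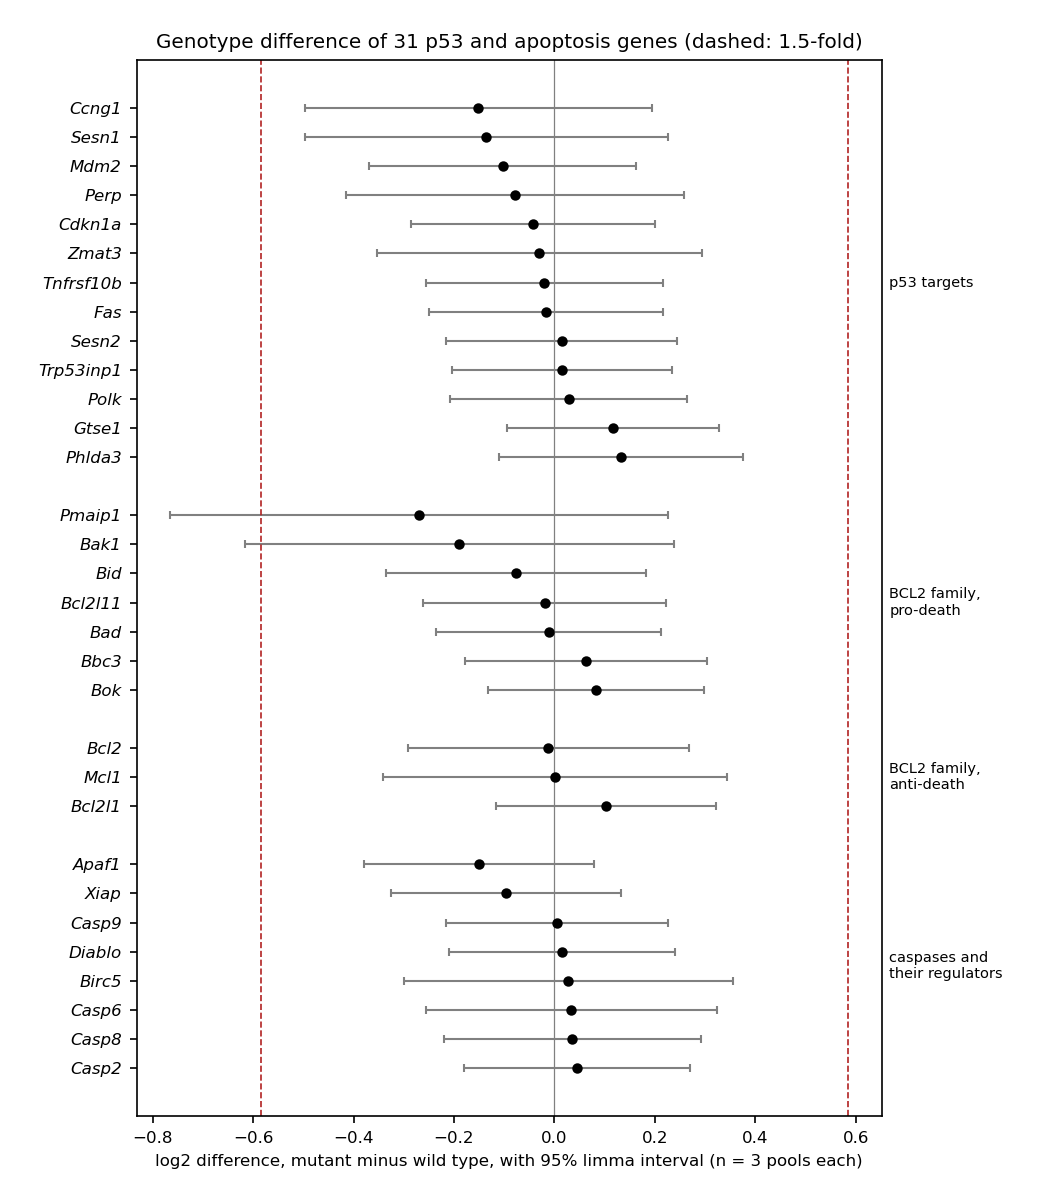
Log2 difference (mutant minus wild type) of each of the 31 genes with its 95% limma interval, n = 3 pools per genotype, grouped by role; dashed lines mark 1.5-fold. All intervals include 0, and only those of Pmaip1 and Bak1 cross a dashed line.

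Among the 13 p53 targets, 8 mutant means were lower and 5 higher, the median log2 difference was -0.020, and 0 passed the test. With 1 pool left out this median ran from -0.053 (mutant pool 3 omitted) to 0.0060 (wild-type pool 3 omitted). Cdkn1a, whose product p21 blocks cyclin-dependent kinases and is the classical readout of p53 activity, had wild-type ratios of 0.989, 1.05 and 0.979 and mutant ratios of 0.870, 1.02 and 1.05. The genotypes overlapped almost completely, with the lowest value in mutant pool 1, and the log2 difference was -0.043 (95% interval -0.29 to 0.20). Mdm2, the ligase that destroys p53 and is itself induced by it, averaged 1.03 ± 0.0475 in wild-type and 0.967 ± 0.126 in mutant pools (SD, n = 3 each). Its log2 difference of -0.10 rested on mutant pool 2, the lowest at 0.823, and was 0.0088 without that pool. The low value came from 1 of its 2 probe sets, 1427718_a_at, at 0.707. The other, 1423605_a_at, read 0.959 in that pool and was lowest in mutant pool 3, at 0.903.

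Ccng1, encoding the p53-induced cyclin G1, had wild-type ratios of 0.912, 0.942 and 1.35 and mutant ratios of 1.04, 0.869 and 0.931. A single high value, that of wild-type pool 3, separated the means: the log2 difference was -0.15 with all pools and 0.028 without that pool. Sesn1, a stress-induced sestrin that restrains mTORC1, followed the same course. It averaged 1.02 ± 0.248 in wild-type and 0.911 ± 0.0778 in mutant pools (SD, n = 3 each), and its log2 difference of -0.14 became 0.052 without wild-type pool 3. Perp, a p53 target needed for desmosomes (-0.078), and Zmat3, an RNA-binding p53 target (-0.030), also had their highest ratio in wild-type pool 3, at 1.36 and 1.24.

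Gtse1 encodes a protein of the S and G2 phases that can carry p53 out of the nucleus. Its wild-type ratios were 0.979, 0.957 and 0.966 and its mutant ratios were 1.03, 1.02 and 1.10. All mutant values lay above all wild-type values, but the log2 difference was 0.12 (95% interval -0.095 to 0.33), and it did not pass (limma unadjusted p = 0.247). Phlda3 had a similar size with overlapping genotypes, at 0.975 ± 0.0501 in wild-type and 1.07 ± 0.103 in mutant pools (SD, n = 3 each).

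The remaining targets differed by less than 0.05 on the log2 scale. Sesn2, the second sestrin, had wild-type ratios of 1.02, 1.08 and 0.910 and mutant ratios of 1.01, 0.997 and 1.02 (difference 0.014). Trp53inp1, a cofactor that promotes p53-dependent death, had 0.942, 1.05 and 0.977 against 0.977, 1.03 and 0.996 (difference 0.015). For both genes every mutant value lay inside the wild-type range. Polk, a translesion DNA polymerase, had 1.09, 0.985 and 0.934 against 1.08, 1.02 and 0.965 (difference 0.029). The death receptor gene Tnfrsf10b had 1.005, 1.08 and 0.921 against 1.004, 0.923 and 1.03 (difference -0.020). Fas, the other death receptor of the list, averaged 1.02 ± 0.0833 in wild-type and 1.01 ± 0.0442 in mutant pools (SD, n = 3 each; difference -0.017). For these genes, too, the mutant values lay within the span of the wild type.

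**Figure D2:**
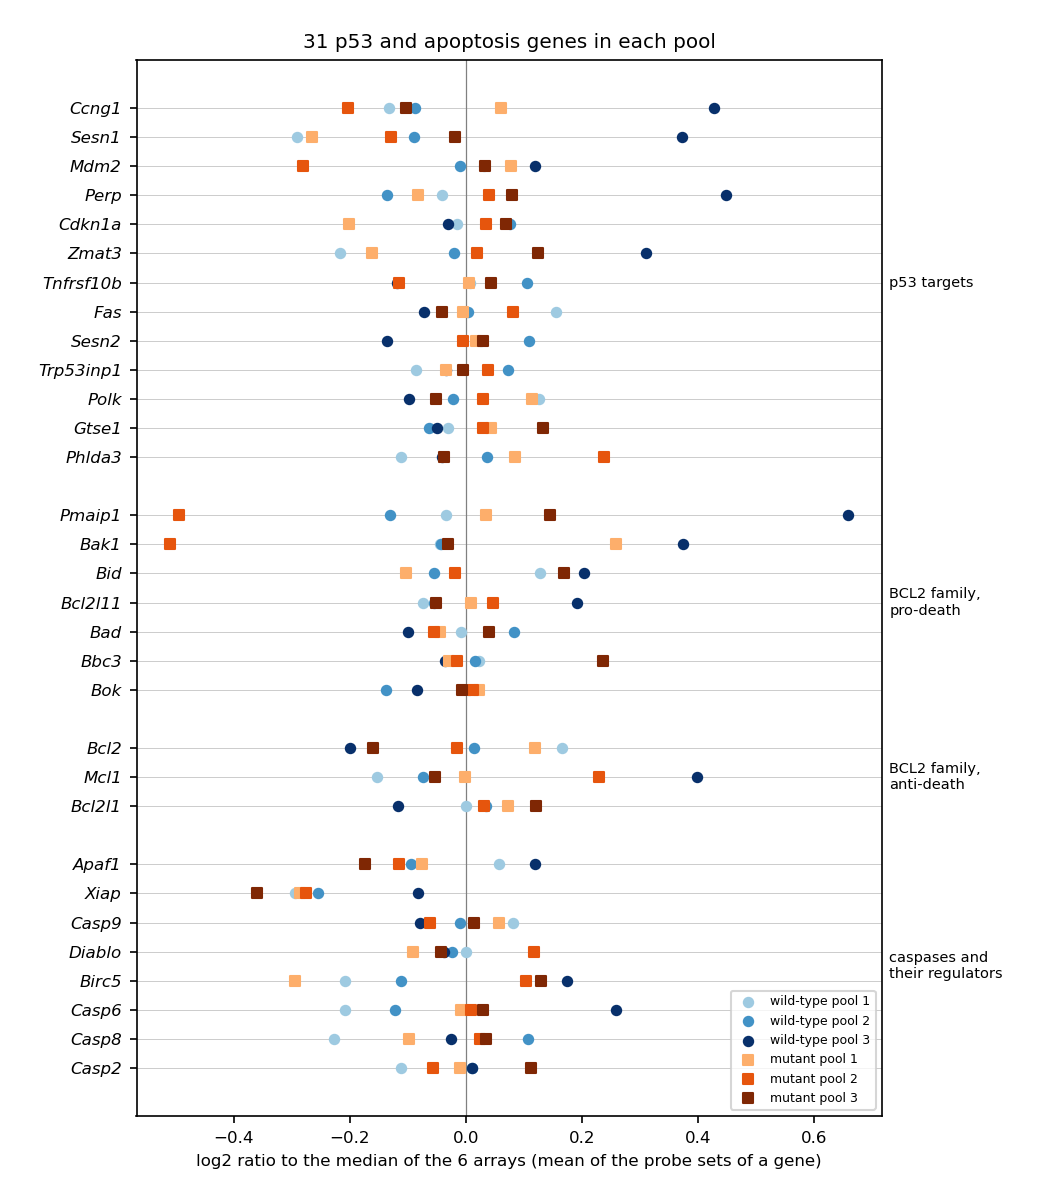
Log2 ratio of each gene in each pool (circles, wild type; squares, mutant; mean over the probe sets of a gene), grouped by role and ordered by genotype difference. The 6 values of Gtse1 separate by genotype, while the dark blue circle of wild-type pool 3 stands far to the right for Ccng1, Perp, Sesn1 and Pmaip1.

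Of the 7 measured pro-death members of the BCL2 family, 5 mutant means were lower and 2 higher, the median log2 difference was -0.019, and 0 passed. The median turned to 0.0057 without mutant pool 2. The pore former Bak1 had wild-type ratios of 0.969, 0.970 and 1.30 and mutant ratios of 1.20, 0.703 and 0.979. The mutant pools thus held both a high and the lowest value. The log2 difference was -0.19, became 0.019 without mutant pool 2, and was -0.049 without wild-type pool 3. Bok, a relative of Bak able to permeabilise membranes without BH3-only help, averaged 0.952 ± 0.0481 and 1.01 ± 0.0101 (SD, n = 3 each; difference 0.082).

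The BH3-only genes Pmaip1 and Bbc3, both direct p53 targets, had opposite signs. Pmaip1 had the widest spread of the 31 genes, 1.15 on the log2 scale between its highest and lowest pool. Its wild-type ratios were 0.976, 0.913 and 1.58 and its mutant ratios were 1.02, 0.710 and 1.11. Without wild-type pool 3 its log2 difference of -0.27 shrank to -0.022, and without mutant pool 2 to -0.074. Bbc3, the Puma gene, averaged 1.001 ± 0.0224 in wild-type and 1.05 ± 0.112 in mutant pools (SD, n = 3 each), a difference of 0.063 that was -0.023 without mutant pool 3.

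Bcl2l11, the gene of the BH3-only protein Bim, had wild-type ratios of 0.951, 0.963 and 1.14 and mutant ratios of 1.01, 1.03 and 0.965. Every mutant value lay between the lowest and the highest wild-type value, and the log2 difference was -0.019. Bad, which links death to growth factor signalling, had 0.994, 1.06 and 0.933 against 0.969, 0.963 and 1.03 (difference -0.012). Bid, which relays death receptor signals to mitochondria, averaged 1.07 ± 0.0962 and 1.01 ± 0.0998 (SD, n = 3 each; difference -0.076).

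The 3 anti-death members were also within the spread between pools, with a median log2 difference of 0.00067, which was -0.014 without mutant pool 2 and 0.074 when wild-type pool 1 was left out. Mcl1, a short-lived guardian of mitochondria, had wild-type ratios of 0.899, 0.951 and 1.32 and mutant ratios of 0.999, 1.17 and 0.964. The extremes of Mcl1 were both wild type, pool 1 the lowest and pool 3 the highest, and its log2 difference was 0.00067 (95% interval -0.34 to 0.34). Bcl2l1, the gene of Bcl-xL, averaged 0.982 ± 0.0531 in wild-type and 1.05 ± 0.0330 in mutant pools (SD, n = 3 each). Its log2 difference of 0.10 stayed between 0.058 and 0.13 when any 1 pool was left out. Bcl2 averaged 1.001 ± 0.126 and 0.990 ± 0.0955 (SD, n = 3 each; difference -0.012).

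Of the 8 caspase genes and caspase regulators, 6 mutant means were higher and 2 lower, the median log2 difference was 0.022, and 0 passed. The median was -0.053 without wild-type pool 1, and was also below 0 without wild-type pool 2, mutant pool 2 or mutant pool 3. Apaf1, the scaffold of the apoptosome, averaged 1.02 ± 0.0771 in wild-type and 0.919 ± 0.0312 in mutant pools (SD, n = 3 each). Its log2 difference of -0.15 (95% interval -0.38 to 0.079) kept its sign in each set of 5 pools, from -0.21 to -0.10, and was -0.054 with array weights. Wild-type pool 2 fell among the mutant values. Casp9, the initiator that Apaf1 activates, had wild-type ratios of 1.06, 0.993 and 0.947 and mutant ratios of 1.04, 0.958 and 1.01 (difference 0.0054). The mutant values of Casp9 thus lay inside the wild-type range.

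The other caspases differed by less than 0.05. The initiator Casp2 averaged 0.980 ± 0.0468 and 1.01 ± 0.0621, a log2 difference of 0.045 (SD, n = 3 each). Casp8, the initiator of the death receptor route, averaged 0.971 ± 0.112 and 0.992 ± 0.0504, a difference of 0.036 (SD, n = 3 each). The executioner Casp6 averaged 0.994 ± 0.177 and 1.01 ± 0.0135, a difference of 0.034 (SD, n = 3 each). For Casp6 the mutant pools, between 0.994 and 1.02, lay inside the wild-type range of 0.866 to 1.20.

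Inhibitors of caspases and an antagonist of these inhibitors completed the group. Xiap, the direct caspase inhibitor, had wild-type ratios of 0.815, 0.838 and 0.945 and mutant ratios of 0.820, 0.827 and 0.779. Its log2 difference was -0.097, and -0.032 without wild-type pool 3. Diablo, the mitochondrial protein that displaces Xiap, had 1.0, 0.983 and 0.975 against 0.939, 1.08 and 0.971 (difference 0.015). Birc5, the gene of survivin, which serves chromosome segregation as well as survival, averaged 0.973 ± 0.138 and 0.995 ± 0.156 (SD, n = 3 each; difference 0.028).

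The averages hide differences between probe sets. The 31 genes were read by 64 probe sets, of which 0 passed in limma and 0 reached an unadjusted p under 0.05, where 0.00442% and 1.16% of all probe sets did. For 11 of the 18 genes with several probe sets, or 61.1%, the probe sets differed in sign, as for 52.3% of such genes overall. The widest case was Mcl1, whose 6 probe sets ran from -0.17 for 1416881_at to 0.23 for 1416880_at on the log2 scale. Those of Sesn2 gave -0.12 and 0.14, and those of Cdkn1a -0.10 and 0.019. By comparison, all 3 probe sets of Ccng1 (-0.17, -0.15 and -0.13) and all 4 of Bcl2l1 (0.0069 to 0.19) had a common sign. For Ccng1, wild-type pool 3 was the highest in all 3 probe sets, and the gene's difference was 0.028 without that pool. The genotypes did not overlap for 2 of the 64 probe sets, both higher in the mutant, where 5.03% of all probe sets did not overlap, 3.05% higher and 1.99% lower. These were the probe set of Gtse1 and 1420888_at of Bcl2l1, whose wild-type ratios were 0.988, 0.992 and 0.945 and whose mutant ratios were 1.01, 1.08 and 1.05.

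For 4 of the 64 probe sets the median over the arrays was below 1, where a floor appears to have replaced the median. They were 3 of the 6 probe sets of Xiap and 1 of the 3 of Sesn1. This is why all pool values of Xiap lie below 1. The probe sets of Xiap with medians at 1 gave -0.27, -0.13 and -0.15, and those below 1 gave -0.063, 0.023 and 0.0054.

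**Figure D3:**
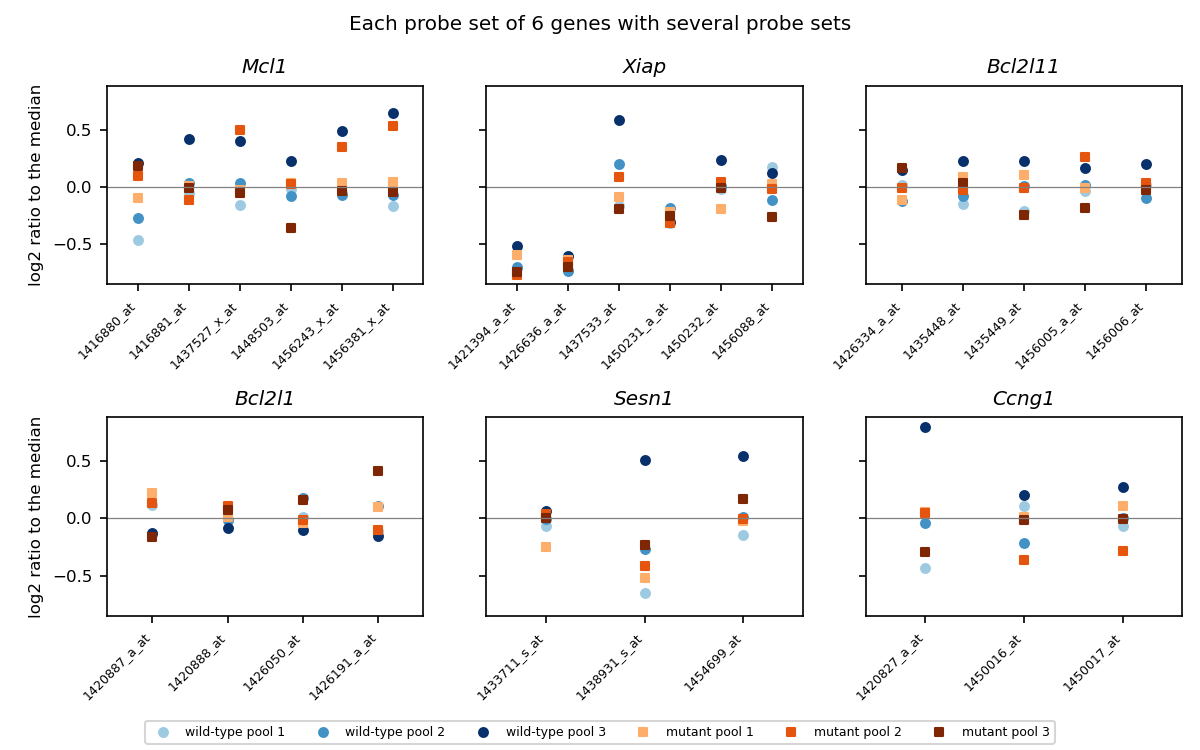
Log2 ratio of every probe set of Mcl1, Xiap, Bcl2l11, Bcl2l1, Sesn1 and Ccng1 in the 6 pools. Wild-type pool 3 is the highest point in all 3 probe sets of Ccng1 and of Sesn1, and 3 probe sets of Xiap lie wholly below 0.

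Single pools differed in how often they held an extreme value. The median absolute genotype difference of the 31 genes was 0.043 on the log2 scale, while the median span between the highest and lowest pool was 0.28. Over all genes these were 0.066 and 0.38. Wild-type pool 3 had the highest of the 6 values for 14 of the 31 genes, or 45.2%, and the lowest for 9, or 29.0%. Over all genes its shares were 34.4% and 32.6%, so this pool was often extreme whatever the gene.

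The genes with their highest value in wild-type pool 3 were the targets Ccng1, Mdm2, Perp, Sesn1 and Zmat3, the pro-death genes Bak1, Bcl2l11, Bid and Pmaip1, and Mcl1, Apaf1, Birc5, Casp6 and Xiap. Those with their lowest value there were Fas, Polk, Sesn2, Tnfrsf10b, Bad, Bbc3, Bcl2, Bcl2l1 and Casp9. Of the targets with a half-site match, Ccng1, Mdm2 and Sesn1 thus belonged to the first set, Polk to the second and Cdkn1a to neither. Perp and Zmat3 of the first set and Tnfrsf10b of the second had no promoter window to search. A link between a match and this pool was not tested. Leaving out wild-type pool 3 moved the log2 difference more than leaving out any other pool for 13 of the 31 genes, or 41.9%, and for 47.5% of all genes. Without it the median difference of the 31 genes was 0.0067.

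**Figure D4:**
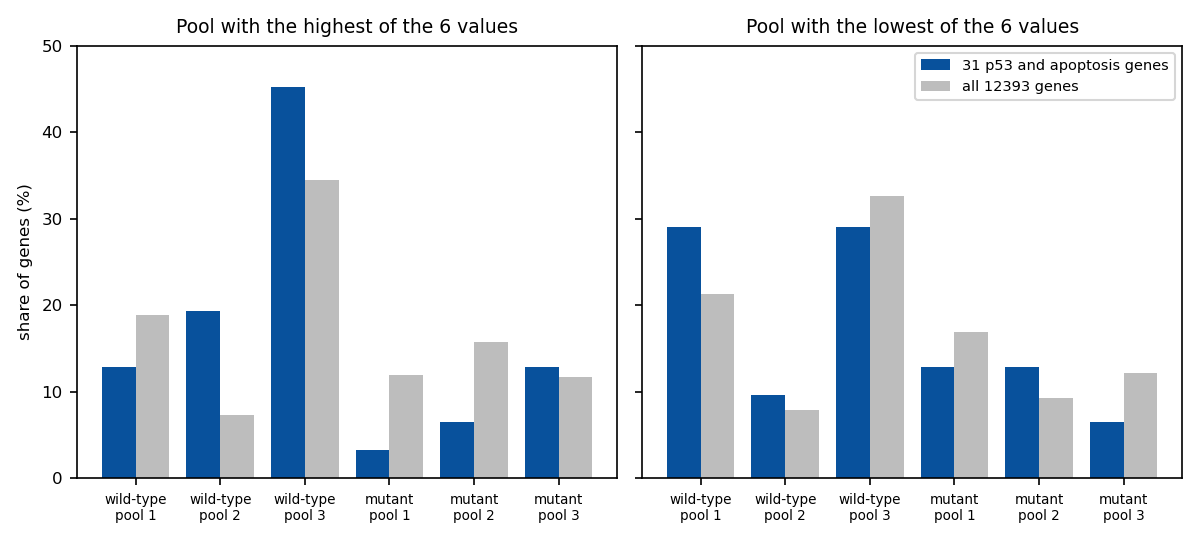
Share of genes (%) whose highest (left) or lowest (right) of 6 values fell in each pool, for the 31 p53 and apoptosis genes (blue) and all 12393 genes (grey). Wild-type pool 3 holds 45.2% of the highest values of the 31 genes against 34.4% over all genes.

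Mitotic genes, to which Birc5 and Gtse1 are related by their role in G2 and mitosis, moved with the same pool. Of 21 measured genes 15, or 71.4%, had their highest value in wild-type pool 3, where 34.4% of all genes had theirs. Their median log2 ratio was -0.072, -0.037 and 0.20 over the wild-type pools and -0.093, 0.014 and 0.052 over the mutant pools. Birc5 followed this order at its ends, with its highest value in wild-type pool 3 and its lowest in mutant pool 1, whereas Gtse1 was lower in all wild-type pools. The genotype difference had a median of -0.036 over the mitotic genes, 17 of 21 being lower by sign, where 48.9% of all genes were. In limma 0 of them passed and 0 had an unadjusted p under 0.05, where 1.28% of all genes did. The genotypes did not overlap for 1 higher and 1 lower mitotic gene, where 3.11% and 1.84% of all genes were. The part of the mitotic genes in the values of Birc5 and Gtse1 was not tested.

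Genes of the same pathways outside the list were examined in the same fit. Among 16 measured regulators of p53, such as the kinase genes Atm and Chek1 and the Mdm2 partner Mdm4, 14 mutant means were lower and 2 higher. Over all genes 48.9% were lower. The median log2 difference of the 16 was -0.062. The 95% interval lay within 1.5-fold for 14 of them, where it did for 96.1% of all genes. In limma 0 passed and 1 had an unadjusted p under 0.05, where 1.28% of all genes did. That gene was Atr, a kinase gene named after its value was seen (log2 difference -0.44). For 11 of these 16 the highest value was in wild-type pool 3, where 34.4% of all genes had theirs, and the genotypes overlapped for all 16. Among 25 further p53 targets, 17 mutant means were lower and 8 higher, with a median of -0.033. In limma 0 passed and 0 had an unadjusted p under 0.05. The genotypes did not overlap for 3 of the 25, all higher in the mutant, where 3.11% of all genes were. The largest of these 3 differences was that of Ak1, an adenylate kinase, at 0.913 ± 0.0867 in wild-type and 1.04 ± 0.0759 in mutant pools (SD, n = 3 each; log2 difference 0.19). The largest difference of the 25 in either direction was that of Ddit4, an inhibitor of mTORC1 signalling named after its value was seen, at -0.60 (95% interval -1.24 to 0.033) with overlapping genotypes. It was the 1 gene of the 25 whose interval was not within 1.5-fold.

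Among 34 further apoptosis genes, 11 mutant means were lower, where 48.9% of all genes were, and 23 higher, with a median of 0.027. In limma 0 passed and 0 had an unadjusted p under 0.05. The genotypes did not overlap for 3 of the 34, 2 higher and 1 lower in the mutant, where 3.11% and 1.84% of all genes were. Cflar, the gene of the caspase-8 inhibitor c-FLIP, averaged 0.962 ± 0.00664 in wild-type and 1.06 ± 0.0301 in mutant pools (SD, n = 3 each; log2 difference 0.14). Vdac2, a channel of the outer mitochondrial membrane that binds Bak, had 1.05 ± 0.0460 and 0.962 ± 0.0404 (SD, n = 3 each; log2 difference -0.13).

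Markers of cell types in the dissected tissue were followed beside these genes. Mutant pool 1 carried heart muscle transcripts, 10 of 10 markers being highest there with a median log2 ratio of 2.04, while the other pools lay between -0.29 and 0.0058. Without that pool the median difference of the 31 genes was 8.9e-04, and none of the 31 passed. Posterior presomitic mesoderm markers were lower in the mutant for 9 of 10 by sign (median -0.23), where 48.9% of all genes were. In limma 0 passed and 3 had an unadjusted p under 0.05, where 1.28% of all genes did. Of the 10, 3 did not overlap between genotypes, all lower, where 1.84% of all genes were. The list includes Dll1, Hes7 and Lfng, genes of the Notch pathway to which Dll3 belongs. An effect of the allele on such genes and a smaller share of mesoderm cannot be told apart here. Endothelial markers were higher for 8 of 10 (median 0.11). In limma 0 passed and 1 had an unadjusted p under 0.05, and 2 did not overlap, both higher, where 3.11% of all genes were. Mutant pool 2 stood apart in both lists. It had the lowest value for 7 of 10 mesoderm markers, with a median log2 ratio of -0.24 against -0.096 and 0.016 in mutant pools 1 and 3, and the highest for 7 of 10 endothelial markers (median 0.18). Leaving out mutant pool 2 moved the log2 difference most for 4 of the 31 genes, or 12.9%, and for 9.36% of all genes. Of these, Mdm2 and Bak1 had their lowest value in that pool, and Phlda3 and Diablo their highest. Markers of macrophages, cells that clear dead neighbours, were lower for 4 and higher for 6 of 10 (median 0.013). Their median log2 ratio was 0.092, 0.0049 and -0.21 over the wild-type pools and lay between -0.058 and -0.023 in the mutant. Lists for neural tube, primitive blood, gut endoderm and visceral yolk sac had median differences from 0.0052 to 0.080, and in limma 0 of their genes passed. Unadjusted limma p-values were under 0.05 for 1 gene each of the neural tube and yolk sac lists. In each of these lists 2 of 10 genes did not overlap between genotypes, all higher in the mutant, where 3.11% of all genes were. For gut endoderm and for macrophages 1 of 10 did not overlap, lower in the mutant, where 1.84% of all genes were. The part of these cell types in the values of the p53 and apoptosis genes was not tested.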

How the data were processed

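RNA from 3 wild-type and 3 Dll3 mutant pools was measured on Affymetrix MOE430A arrays, 1 array a pool, and the number of arrays limits the precision. The deposited values are linear ratios to the median of the 6 arrays, as read from the values. The submitters' processing notes list RMA and MAS5 with no role, and the sources used here do not give how signals were summarised or arrays scaled.

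Without the 64 controls, 22626 probe sets were tested. Of these, 20380 had 1 gene symbol in the platform's annotation, 691 several and 1555 none. RefSeq (GRCm38.p6) matched 20351 of these entries by Entrez ID and changed 0 symbols. Log2 ratios were averaged over the probe sets of each of 12393 genes and fitted by genotype alone (limma 3.58.1, R 4.3.3, lmFit then eBayes, two-sided), with Benjamini-Hochberg adjustment over all genes at 0.05. Probe sets were fitted likewise. The script was tested on simulated data. Alternatives covered normalization, the log offset, probe set filters, robust variances, array weights (gene by gene method), omission of each pool in turn, and a block by replicate number.

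All 33 genes are named, with every pool's ratio where genotypes did not overlap, the log2 difference was at least 0.15 in size, or probe sets differed in sign. From each list of other pathway genes, the largest difference per direction without overlap is named, and Atm, Chek1 and Mdm4 only as examples of a list. The members and lists were chosen with earlier results of these data known. Plots used matplotlib 3.10.9 in Python 3.11.15.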

Additional observations from a re-analysis of the deposited data

How the results depend on the processing

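None of the 31 genes passed in limma under any of the 14 alternatives (lowest adjusted p = 0.710, with array weights), and their median log2 difference stayed between -0.017 and 0.00019 in the 8 that kept all pools and between -0.052 and 0.0067 without 1 pool. The count of genes past the threshold was 1, Dll3. It was 2 with quantile normalization, with arrays centred on their median, without probe sets ending in _s_at, _x_at or _a_at, and without probe sets whose median was below 1, Hnrnpl being the second gene in each. It was 3 with array weights, and 1 to 2 without 1 pool, the 2 being Dll3 and Hnrnpl without wild-type pool 3. For probe sets the count was 1, with 2 under quantile normalization, 2 with array weights, and 0 to 1 without 1 pool, with 0 when wild-type pool 2 or any mutant pool was left out. Leaving out the probe sets with those endings left 28 of the 31 genes, and the cause of the other changes was not tested. With the replicate number as a block (replicate block), 1 gene and 0 of the 31 passed. Deviations from the genotype means correlated at 0.187, -0.0015 and 0.207 for pools of the same number 1, 2 and 3. Pools of unlike number correlated at -0.203 to 0.122, and wild-type pool 2 correlated best with mutant pool 1. These values do not settle whether the labels' numbers pair the pools.

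Signs of the small differences were not stable. The median of the p53 targets was -0.0015 without probe sets ending in _s_at, _x_at or _a_at and ranged from -0.053 to 0.0060 without 1 pool. That of the pro-death genes was 0.037 with array weights and -0.078 without the probe sets with those endings, and ranged from -0.059 to 0.0057 without 1 pool. That of the anti-death genes was 0.080 with quantile normalization, -0.0032 with centred arrays, -0.0025 with log2(value + 1) and -0.012 without the probe sets with those endings, and ranged from -0.014 to 0.074. That of the caspases and regulators ranged from -0.053 to 0.050. Not every alternative could change a sign. Robust variances and the replicate block left each log2 difference as in the main fit. Among the listed genes, leaving out probe sets with a median below 1 altered only Xiap and Sesn1. Centring moved all genes by the same small amount, as for Cdkn1a from -0.043 to -0.046. The share of all genes with a stable sign was not counted. In 7 genes, Pmaip1, Phlda3, Apaf1, Bcl2l1, Bok, Xiap and Gtse1, the sign held in every alternative in which the gene was measured. Other log2 differences changed sign with quantile normalization (Trp53inp1 -0.018, Sesn2 -0.032, Perp 0.024, Casp8 -0.0077, Casp9 -0.017, Bcl2l11 0.021, Zmat3 0.022) and with array weights (Trp53inp1 -0.043, Sesn2 -0.079, Perp 0.12, Fas 0.00019, Casp8 -0.065, Casp9 -0.0063, Bcl2l11 0.056, Bid 0.037, Zmat3 0.037). Mcl1 changed sign with centred arrays (-0.0032), with log2(value + 1) (-0.0025) and, like Cdkn1a (0.019), without the probe sets ending in _s_at, _x_at or _a_at (-0.028). Without 1 pool, 23 genes spanned 0: Cdkn1a (-0.093 to 0.042), Mdm2 (-0.17 to 0.0088), Ccng1 (-0.25 to 0.028), Trp53inp1 (-0.020 to 0.059), Bbc3 (-0.023 to 0.11), Sesn1 (-0.28 to 0.052), Sesn2 (-0.054 to 0.069), Perp (-0.19 to 0.10), Tnfrsf10b (-0.079 to 0.034), Fas (-0.068 to 0.046), Casp2 (-0.0035 to 0.081), Casp6 (-0.058 to 0.17), Casp8 (-0.054 to 0.11), Casp9 (-0.032 to 0.047), Bcl2 (-0.11 to 0.074), Bcl2l11 (-0.067 to 0.066), Mcl1 (-0.10 to 0.17), Bak1 (-0.37 to 0.019), Bad (-0.057 to 0.034), Birc5 (-0.052 to 0.17), Diablo (-0.046 to 0.058), Zmat3 (-0.15 to 0.11) and Polk (-0.021 to 0.091). Signal over background is unknown for ratios, so a probe set too dim to respond cannot be told from one that did not change.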
